A study of Mus musculus with 18 samples.

Results

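The genes described here are 45 mouse genes of the DNA damage checkpoint and of DNA repair, chosen by name from 55487 annotated gene identifiers. Each symbol matched 1 identifier, and all 45 genes passed the filter on low counts that kept 20118 genes. They comprise 6 checkpoint genes, 13 genes of end resection and homologous recombination, 10 Fanconi anaemia genes, 6 nucleotide excision repair genes, 3 genes of mismatch and single-strand break repair, 5 end-joining genes and 2 translesion polymerases. Their RNA was sequenced from forelimb buds, with 3 mutant and 3 control libraries at each stage. The stages were E9.5, E10.5 and E11.5, where E stands for the day of embryonic development. Mutants were Esco2fl/fl;Prrx1-CreTg/0, that is, both Esco2 alleles were flanked by loxP sites and the Prrx1-Cre transgene was present. Controls were Esco2fl/fl and lacked the transgene, so the effects of Cre and of Esco2 loss cannot be told apart. Prrx1-Cre is active in limb mesenchyme, and the surface ectoderm, vessels and blood cells of a limb bud remain outside its main domain. Whether the 3 libraries of a group derive from different embryos is not stated in the labels, so p-values describe the spread among these libraries, which may be technical. Each library has its own name in the labels, and some names start with the same number, whose meaning is not stated. Such a number is shared by 2 mutants and 2 controls at E10.5, by 1 mutant and 1 control at E9.5 and at E11.5, and by 2 controls at E11.5.

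ESCO2 acetylates cohesin during DNA replication, which helps to hold sister chromatids together, and paired sisters are the template of homologous recombination. Cells sense DNA breaks and stalled replication forks through the ATM and ATR kinases, which act through CHK2 and CHK1 and, with these, stabilise the transcription factor p53. Breaks are then repaired by recombination or by end joining, interstrand crosslinks by the Fanconi anaemia pathway, and damaged bases by excision repair or bypassed by translesion polymerases. Much of this machinery is controlled on the protein, by phosphorylation and ubiquitination, which RNA counts do not measure.

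Total counts per library ran from 35034237 to 56230058. A control library at E9.5 (replicate 1) and a mutant library at E10.5 (replicate 3) stood apart from their groups in an earlier analysis of these data, and counts that move without them are given both ways. In control E9.5 replicate 1 many of the genes with long transcripts were low: Atm was at 9.78 CPM (the count of a gene relative to the scaled total of its library), against 51.5 and 48.8 CPM in the other controls of that stage. In mutant E10.5 replicate 3, 10 erythroid markers summed to 20064 CPM, against 6386 and 9978 CPM in the other mutants of that stage. Esco2 itself averaged 17.6 ± 2.3 CPM in E9.5 mutants and 26.8 ± 1.6 CPM in E9.5 controls (SD, n = 3 each), and 21.0 ± 1.9 CPM in E10.5 mutants and 30.4 ± 2.9 CPM in E10.5 controls. It averaged 22.9 ± 0.73 CPM in E11.5 mutants and 27.4 ± 6.0 CPM in E11.5 controls, with overlapping groups. It was called at E10.5 and not at E9.5 or E11.5, and over the 3 stages its mean log2 change was -0.46 ± 0.08 (SE). In mutants the sum of 10 limb mesenchyme markers was 1069.5 to 1330.0 CPM at E10.5 and 1055 to 1314 CPM at E11.5, against 2021 to 2071 and 2183 to 2249 CPM in controls. The sum of 12 surface ectoderm markers was 902 to 1270.3 CPM in mutants and 417 to 608 CPM in controls at E10.5, and the other tissue markers are given further on. Because whole limb buds were sequenced, fewer cells of a type and less RNA per cell cannot be told apart in any of the changes below.

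All 45 genes were measured in limb buds, at levels that spanned a wide range when scaled to exon length. Parp1, whose enzyme senses breaks by making poly(ADP-ribose), had the highest mean over the 18 libraries at 87.9 CPM per kilobase of exon. Next came Msh6, which recognises mismatches, at 37.9, Xrcc5 at 27.0, the break adaptor Mdc1 at 22.8 and the single-strand repair scaffold Xrcc1 at 20.6 CPM per kilobase. The lowest were Xrcc4, the partner of DNA ligase 4, at 1.28, Atr at 2.05, the translesion polymerase gene Polk at 2.15 and Prkdc, the catalytic subunit of DNA-PK, at 2.24 CPM per kilobase. Levels also differed within a class: the end-joining genes ran from 1.28 for Xrcc4 to 27.0 for Xrcc5, and the checkpoint genes from 2.05 for Atr to 22.8 for Mdc1. The Fanconi anaemia genes lay closer together, from 3.04 CPM per kilobase for Fancc to 11.8 for Fance. Recombination genes ran from 2.63 for the RecQ helicase gene Wrn to 14.8 for Nbn, a subunit of the break sensor MRE11-RAD50-NBS1. Excision repair genes ran from 2.92 for the incision nuclease gene Ercc4 to 9.92 for its partner Ercc1.

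**Figure D1:**
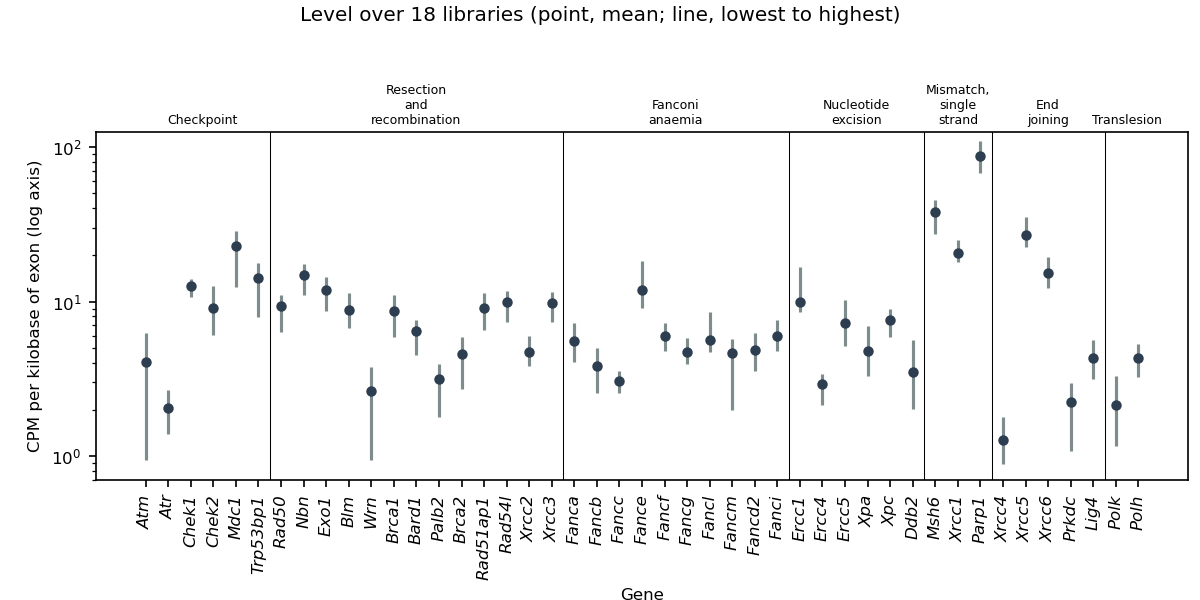
Level of each of the 45 genes in CPM per kilobase of exon (log axis), grouped by repair class. Points are means over the 18 libraries and lines run from the lowest to the highest library, with Parp1 highest at 87.9 and Xrcc4 lowest at 1.28.

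The mutant effect on these genes was small, and its direction was mixed at E9.5 and E11.5 and mostly negative at E10.5. At each stage the fitted log2 change of most genes was within 0.5 of 0, and 37 of the 45 were within 0.5 at all 3 stages. That count was not made over all genes. At E9.5 none of the 45 passed an adjusted p of 0.05 (quasi-likelihood test of edgeR, adjusted after Benjamini and Hochberg over all genes tested), in a comparison that called 0.184% of all genes in either direction. At that stage 3 genes had an unadjusted p under 0.05 in the same test, as had 1996 of all 20118 genes. DESeq2 called 1 gene, Polk, and 0.559% of the 22548 genes to which it gave an adjusted p. Both limma-voom and the authors' log2 FPKM values gave 0 calls among the 45. At E10.5 and again at E11.5, 3 genes were higher and 3 lower in mutants. Called genes made up 7.3% (higher) and 6.63% (lower) of all genes tested at E10.5, and 8.02% and 9.52% at E11.5, so 3 of 45 is near the background in each direction. The median log2 change of the 45 genes was 0.09 at E9.5, -0.20 at E10.5 and 0.03 at E11.5, against -0.01, 0.02 and 0.01 over all genes tested. The sign at E9.5 rests on 1 library: without control E9.5 replicate 1 the median of the 45 was -0.05 at E9.5, -0.21 at E10.5 and 0.02 at E11.5.

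Averaged over the 3 stages, Polk, Ercc5 and Chek2 were higher in mutants, and Xrcc5, Ddb2 and Fancg were lower. This mean effect called 10.6% of all genes tested as higher and 10.6% as lower, against 3 of the 45 in each direction. The mean log2 changes were 0.68 ± 0.09 for Polk, 0.42 ± 0.06 for Ercc5 and 0.35 ± 0.06 for Chek2 (SE). They were -0.34 ± 0.05 for Xrcc5, -0.34 ± 0.09 for Ddb2 and -0.28 ± 0.06 for Fancg. The adjusted p of these 6 genes in edgeR's quasi-likelihood test ran from 7e-05 for Polk to 0.0085 for Ddb2. The same 6 passed when any 1 of the 18 libraries was left out. Without control E9.5 replicate 1 the mean effect called 13 genes, 3 higher and 10 lower. The background, the share of all genes tested that the same fit called, was then 16.6% higher and 16.8% lower. Across the stages 6 genes had a positive log2 change each time (Bard1, Chek2, Ercc5, Polh, Polk and Xrcc3) and 7 a negative one (Ddb2, Ercc1, Fancf, Fancg, Fancl, Xrcc2 and Xrcc5). Without control E9.5 replicate 1 the same 6 were positive each time and 12 were negative, without Ercc1 and Fancl, whose E9.5 values became 0.02 and 0.14. Genes with the same sign at all 3 stages were not counted over all genes tested, so these counts have no background.

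**Figure D2:**
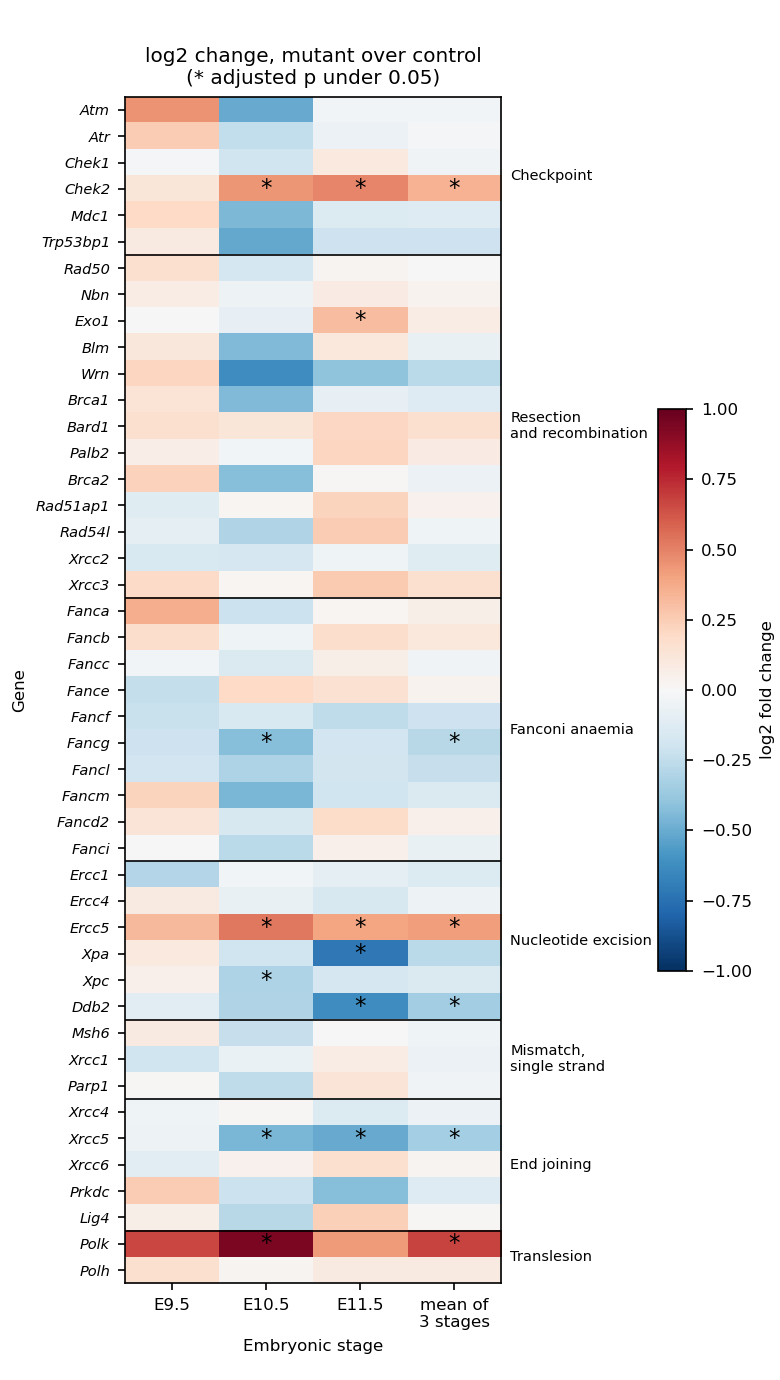
Fitted log2 change, mutant over control, of the 45 genes (rows, by class) at E9.5, E10.5, E11.5 and as the mean of the 3 stages. Red is higher and blue lower in mutants, and a star marks an adjusted p under 0.05. Most of the E10.5 column is pale blue, while Chek2, Ercc5 and Polk are red at all 3 stages.

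Promoters are printed for the genes called in the same direction at both E10.5 and E11.5, which were Chek2, Ercc5 and Xrcc5, so that their sequence can be read beside their values. Polk was added after its values had been seen, because its mean log2 change was the highest of the 45 genes. The windows are from RefSeq (GRCm38.p6) and run from 250 bases before to 50 bases after the start site, 5′ to 3′ on the strand of the gene. Capitals mark matches, on either strand, to a p53 half-site, to the CHR element of cell cycle promoters (TTTGAA), to an E2F core (GCGGGAA) and to a CCAAT box (CCAAT, which reads ATTGG on the other strand). No match overlapped another in these windows. The windows are chr5:110839733-110840032 (+) for Chek2, chr1:44147494-44147793 (+) for Ercc5, chr1:72307171-72307470 (+) for Xrcc5, and chr13:96519138-96519437 (-) and chr13:96542530-96542829 (-) for the 2 start sites of Polk.
Chek2: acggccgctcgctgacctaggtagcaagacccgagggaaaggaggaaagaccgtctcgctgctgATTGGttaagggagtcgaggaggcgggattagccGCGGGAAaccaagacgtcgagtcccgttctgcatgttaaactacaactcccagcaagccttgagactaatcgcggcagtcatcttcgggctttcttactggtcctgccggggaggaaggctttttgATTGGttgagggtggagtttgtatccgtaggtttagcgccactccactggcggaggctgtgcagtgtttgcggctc
Ercc5: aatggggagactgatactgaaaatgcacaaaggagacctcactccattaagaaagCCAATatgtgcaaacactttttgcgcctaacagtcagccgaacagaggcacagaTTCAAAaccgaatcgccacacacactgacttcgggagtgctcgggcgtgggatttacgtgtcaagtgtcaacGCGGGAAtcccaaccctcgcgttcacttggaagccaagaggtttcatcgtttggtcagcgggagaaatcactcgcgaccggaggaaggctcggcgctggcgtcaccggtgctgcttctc
Xrcc5: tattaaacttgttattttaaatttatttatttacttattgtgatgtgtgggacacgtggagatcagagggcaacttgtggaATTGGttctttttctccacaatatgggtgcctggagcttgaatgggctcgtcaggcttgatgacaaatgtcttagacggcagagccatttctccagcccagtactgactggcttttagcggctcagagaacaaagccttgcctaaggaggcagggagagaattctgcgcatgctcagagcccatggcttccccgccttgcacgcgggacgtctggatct
Polk, inner start site: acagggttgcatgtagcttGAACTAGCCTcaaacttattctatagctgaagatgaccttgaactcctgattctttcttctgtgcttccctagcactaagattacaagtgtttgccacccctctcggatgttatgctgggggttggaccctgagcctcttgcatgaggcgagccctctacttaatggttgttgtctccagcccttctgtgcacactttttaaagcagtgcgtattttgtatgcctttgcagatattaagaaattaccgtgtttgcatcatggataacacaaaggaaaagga
Polk, outer start site: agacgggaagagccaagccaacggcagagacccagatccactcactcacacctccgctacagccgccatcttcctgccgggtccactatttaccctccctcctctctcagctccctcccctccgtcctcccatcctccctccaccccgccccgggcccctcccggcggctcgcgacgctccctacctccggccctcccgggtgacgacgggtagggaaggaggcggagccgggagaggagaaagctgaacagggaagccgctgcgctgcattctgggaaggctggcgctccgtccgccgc

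Chek2 held CCAAT boxes at -186 and -26 and an E2F core at -152, counted from the start site to the first base of the match. Ercc5 held a CCAAT box at -195, a CHR at -141 and an E2F core at -69, and Xrcc5 held a CCAAT box at -169. The window at the inner start site of Polk held a p53 half-site at -231, and that at the outer one held none of the 4 motifs. Promoter windows were found for 36 of the 45 genes, 39 windows in all. Of these, 15 held an E2F core, 23 a CCAAT box, 3 a p53 half-site and 2 a CHR. Of 32851 mouse promoter windows of this length, 4.6% held an E2F core, 37.4% a CCAAT box, 8.36% a p53 half-site and 17.9% a CHR. The E2F core stood in windows of genes from most classes, among them Atm, Chek1, Mdc1, Brca2, Bard1, Fanci and Msh6. A match is a run of letters and does not show that a factor bound there.

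Among the checkpoint genes only Chek2 passed the test, at E10.5 and E11.5. Chek2 (ENSMUSG00000029521.7, mm10 chromosome 5, 110839979 to 110874145) encodes the effector kinase downstream of ATM. At E10.5 it was at 32.0, 30.1 and 37.6 CPM in mutants and at 25.5, 21.4 and 26.4 CPM in controls. At E11.5 it was at 25.6, 27.2 and 26.6 CPM in mutants and at 19.5, 18.9 and 18.3 CPM in controls. Every mutant library was above every control library at both stages. The log2 change was 0.44 ± 0.10 at E10.5 (adjusted p = 0.0078). At E11.5 it was 0.49 ± 0.10 (adjusted p = 0.0033, both in edgeR's quasi-likelihood test). At E10.5 the call was lost without control replicate 2 or without mutant replicate 3, and at E11.5 it was kept when any of its 6 libraries was left out. In controls Chek2 was lower at E11.5 than at E10.5, with a log2 change of -0.37 ± 0.10 (adjusted p = 0.030), and the E11.5 mutants overlapped the E10.5 controls.

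The other checkpoint genes had negative log2 changes at E10.5 that did not pass the threshold. Atm, the kinase activated by breaks, had a log2 change of -0.50 at E10.5, and Atr, the kinase activated at stalled forks, had -0.25. Trp53bp1, whose protein limits end resection, was at 182, 158 and 160 CPM in E10.5 mutants and at 251, 235 and 227 CPM in E10.5 controls, a log2 change of -0.51 ± 0.19 (adjusted p = 0.082 in edgeR's quasi-likelihood test). Mdc1 was at 147, 132 and 141 CPM in mutants and at 195, 199 and 178 CPM in controls at that stage, a log2 change of -0.45 ± 0.20. The groups did not overlap for either gene. Chek1, the effector downstream of ATR, had a log2 change of -0.20 at E10.5 and 0.10 at E11.5.

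Of the 13 resection and recombination genes, 1 was called at any stage. Exo1, an exonuclease of resection and mismatch repair (ENSMUSG00000039748.11, mm10 chromosome 1, 175880581 to 175913489), was higher in mutants at E11.5. It was at 86.0, 94.8 and 103 CPM in those mutants and at 82.7, 73.1 and 73.9 CPM in the controls. The lowest mutant library was just above the highest control library, and the log2 change was 0.31 ± 0.10 (adjusted p = 0.046 in edgeR's quasi-likelihood test). The call was kept in 2 of the 6 fits that left out a library of that stage. In controls Exo1 was lower at E11.5 than at E10.5, with a log2 change of -0.45 ± 0.10.

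Several long recombination genes had all E10.5 mutant libraries below all controls but were not called with all libraries in the fit. Brca1, which promotes resection, was at 66.3, 64.8 and 63.1 CPM in E10.5 mutants and at 90.9, 93.5 and 79.0 CPM in E10.5 controls, a log2 change of -0.44 ± 0.16 (adjusted p = 0.078 in edgeR's quasi-likelihood test). Brca2, a mediator of homologous recombination, was at 55.1, 54.1 and 51.3 CPM in mutants and at 73.3, 74.8 and 68.0 CPM in controls, with -0.43 ± 0.19. The RecQ helicase gene Blm was at 65.2, 61.9 and 65.7 CPM in mutants and at 86.4, 94.6 and 81.5 CPM in controls, with -0.45 ± 0.16. Neither Brca1, Brca2 nor Blm had overlapping groups at E10.5, and at E11.5 their log2 changes were between -0.08 and 0.11. Wrn had the lowest log2 change of the 45 genes at E10.5, -0.62 ± 0.24, and -0.40 ± 0.24 at E11.5. Rad54l, a DNA translocase of homologous recombination, had a log2 change of -0.30 ± 0.10 at E10.5, with an adjusted p of 0.051, and one of 0.25 ± 0.10 at E11.5, with an adjusted p of 0.088. Bard1, the partner of BRCA1, and the recombination gene Xrcc3 had positive log2 changes throughout, of 0.12 to 0.21 and of 0.02 to 0.26.

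The Fanconi anaemia genes gave 1 call, Fancg at E10.5. Fancg (ENSMUSG00000028453.10, mm10 chromosome 4, 43002343 to 43010506) encodes a subunit of the core complex that ubiquitinates FANCD2 and FANCI. It was at 16.6, 14.9 and 15.2 CPM in E10.5 mutants and at 22.1, 20.1 and 20.6 CPM in E10.5 controls, with no overlap. The log2 change was -0.43 ± 0.11 (adjusted p = 0.012 in edgeR's quasi-likelihood test), and 3 of the 6 fits that left out a library of that stage kept the call. At E9.5 its mutant libraries, at 16.2, 14.8 and 17.8 CPM, were also below its control libraries, at 19.5, 18.4 and 18.6 CPM. Fancl, the ubiquitin ligase of the complex, had log2 changes of -0.19, -0.31 and -0.19 at the 3 stages, and of 0.14 at E9.5 without control E9.5 replicate 1. Of the 10 genes of this class 5 had a negative change at E9.5, 9 at E10.5 and 4 at E11.5.

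Nucleotide excision repair held 4 of the 9 genes called at any stage, and they went in opposite directions. The share of all genes called at any stage was not counted, so these counts by class have no background. Ercc5 (ENSMUSG00000026048.16, mm10 chromosome 1, 44147744 to 44181260), which encodes the 3′ incision nuclease XPG, was higher in mutants. At E10.5 it was at 54.9, 50.1 and 60.0 CPM in mutants and at 36.3, 39.4 and 38.5 CPM in controls. At E11.5 it was at 43.3, 48.2 and 56.5 CPM in mutants and at 36.5, 39.2 and 36.8 CPM in controls. The groups did not overlap at these stages, nor at E9.5, where the mutants were at 43.8, 41.8 and 37.4 CPM and the controls at 30.4, 35.3 and 32.4 CPM. By edgeR's quasi-likelihood test Ercc5 had a log2 change of 0.53 ± 0.11 at E10.5, with an adjusted p of 0.0031, and of 0.40 ± 0.11 at E11.5, with an adjusted p of 0.016. The E9.5 value of 0.33 ± 0.11 did not pass (adjusted p = 0.49), and it was 0.28 without control E9.5 replicate 1. At E10.5 the call was kept whichever of its 6 libraries was left out. At E11.5 it was lost without control replicate 1, control replicate 3 or mutant replicate 3.

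The other 3 excision repair genes that passed were lower in mutants. Ddb2, a damage recognition factor and in human cells a p53 target (ENSMUSG00000002109.14, mm10 chromosome 2, 91211572 to 91236982), had levels of 9.89, 9.59 and 8.29 CPM in E11.5 mutants and of 12.7, 14.7 and 15.4 CPM in E11.5 controls. Its groups did not overlap, and the log2 change was -0.62 ± 0.15 (adjusted p = 0.0079 in edgeR's quasi-likelihood test), which passed when any library of that stage was left out. At E9.5 Ddb2 was at 7.04, 5.48 and 6.26 CPM in mutants and at 6.73, 7.24 and 6.26 CPM in controls. At E10.5 it was at 8.55, 9.70 and 9.78 CPM in mutants and at 11.3, 9.77 and 13.6 CPM in controls. In both genotypes every library of the later stages was above those of E9.5, and the mutant libraries of E10.5 and E11.5 overlapped each other.

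Xpa, which verifies damage before incision (ENSMUSG00000028329.13, mm10 chromosome 4, 46155347 to 46196311), had levels of 6.55, 7.36 and 7.14 CPM in E11.5 mutants and of 9.84, 11.7 and 13.1 CPM in E11.5 controls. The log2 change was -0.72 ± 0.24 (adjusted p = 0.046 in edgeR's quasi-likelihood test), and 1 of 6 fits without a library of that stage kept the call. It was also lost with limma-voom and with the authors' log2 FPKM values. Xpc, the damage sensor, in human cells also a p53 target (ENSMUSG00000030094.8, mm10 chromosome 6, 91489305 to 91515888), had levels of 37.5, 36.5 and 38.4 CPM in E10.5 mutants and of 45.1, 46.4 and 47.7 CPM in E10.5 controls. Although its groups were well separated, the log2 change of -0.31 ± 0.09 (adjusted p = 0.037) was kept in none of those 6 fits. Ercc1 and Ercc4, the subunits of the 5′ incision nuclease, had log2 changes between -0.29 and 0.09.

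Among the end-joining genes Xrcc5 was lower in mutants at E10.5 and E11.5, while its partner Xrcc6 was not called against the controls at any stage. Xrcc5 (ENSMUSG00000026187.9, mm10 chromosome 1, 72307427 to 72394952) encodes Ku80 and Xrcc6 encodes Ku70, which form the ring that binds DNA ends. Xrcc5 was at 60.7, 68.6 and 64.6 CPM in E9.5 mutants and at 66.9, 63.5 and 70.7 CPM in E9.5 controls, with overlapping groups. At E10.5 it was at 57.3, 57.5 and 60.1 CPM in mutants and at 78.3, 86.2 and 75.8 CPM in controls. At E11.5 it was at 58.0, 57.0 and 61.6 CPM in mutants and at 89.3, 77.7 and 83.1 CPM in controls. At both later stages every mutant library was below every control library.

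The log2 change of Xrcc5 was -0.05 ± 0.08 at E9.5, -0.46 ± 0.08 at E10.5 (adjusted p = 0.0015). At E11.5 it was -0.50 ± 0.08 (adjusted p = 0.00063, both in edgeR's quasi-likelihood test). Both calls were kept whichever library of the stage was left out. Xrcc5 was also the 1 gene of the 45 whose mutant effect was called as different between stages: E11.5 minus E9.5 was -0.45 ± 0.12 (adjusted p = 0.034), in a contrast that called 6.42% of all genes. This call was lost in 8 of the 18 fits that left out 1 library, among them each fit without a mutant library of E11.5. It was also lost with a replicate block (adjusted p = 0.062), where Xpa was called in place of Xrcc5. The other interaction contrasts called none of the 45, with 2.22% of all genes called for E10.5 minus E9.5 and 0.0746% for E11.5 minus E10.5. In those contrasts 12 and 7 genes had an unadjusted p under 0.05 in the same test, as had 4422 and 1705 of all 20118 genes. DESeq2 called 1 gene in each, Xrcc5 in the first and Rad54l in the second. It called 8.09% of the 16807 and 0.873% of the 20630 genes to which it gave an adjusted p there. In both contrasts limma-voom and the log2 FPKM values gave 0 calls. In controls Xrcc5 was higher at E10.5 than at E9.5 by 0.26 ± 0.08 on the log2 scale, and Xrcc6 was lower, with a log2 change of -0.43 ± 0.09. Prkdc had a log2 change of -0.43 ± 0.21 at E11.5 (adjusted p = 0.18), and Lig4, the ligase of the pathway, had -0.28 at E10.5 and 0.24 at E11.5.

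Polk was higher in mutants at E10.5 and had the highest log2 change of the 45 genes at that stage. Polk (ENSMUSG00000021668.15, mm10 chromosome 13, 96480690 to 96542579) encodes the translesion polymerase kappa, which copies past damaged bases. It was at 12.6, 12.8 and 14.3 CPM in E9.5 mutants and at 6.46, 9.95 and 8.58 CPM in E9.5 controls. At E10.5 it was at 18.4, 14.3 and 17.5 CPM in mutants and at 10.3, 7.36 and 8.51 CPM in controls, and at E11.5 at 13.5, 14.9 and 14.2 CPM in mutants and at 11.55, 10.46 and 9.67 CPM in controls. Mutant and control libraries did not overlap at any of the 3 stages.

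By edgeR's quasi-likelihood test Polk had a log2 change of 0.94 ± 0.16 at E10.5, with an adjusted p of 0.00098. The values of Polk at the other stages did not pass, with 0.67 ± 0.16 at E9.5 (adjusted p = 0.18), and with 0.43 ± 0.16 and an adjusted p of 0.081 at E11.5. Without control E9.5 replicate 1, which had the lowest Polk level of the E9.5 controls, the E9.5 value was 0.52. The E10.5 call was kept in every fit that left out a library. The other translesion polymerase gene, Polh (polymerase eta), had log2 changes of 0.16, 0.03 and 0.09 and was not called. The mismatch and single-strand break repair genes Msh6, Xrcc1 and Parp1 were not called either, and their log2 changes ran from -0.25 to 0.13 over the 3 stages.

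**Figure D3:**
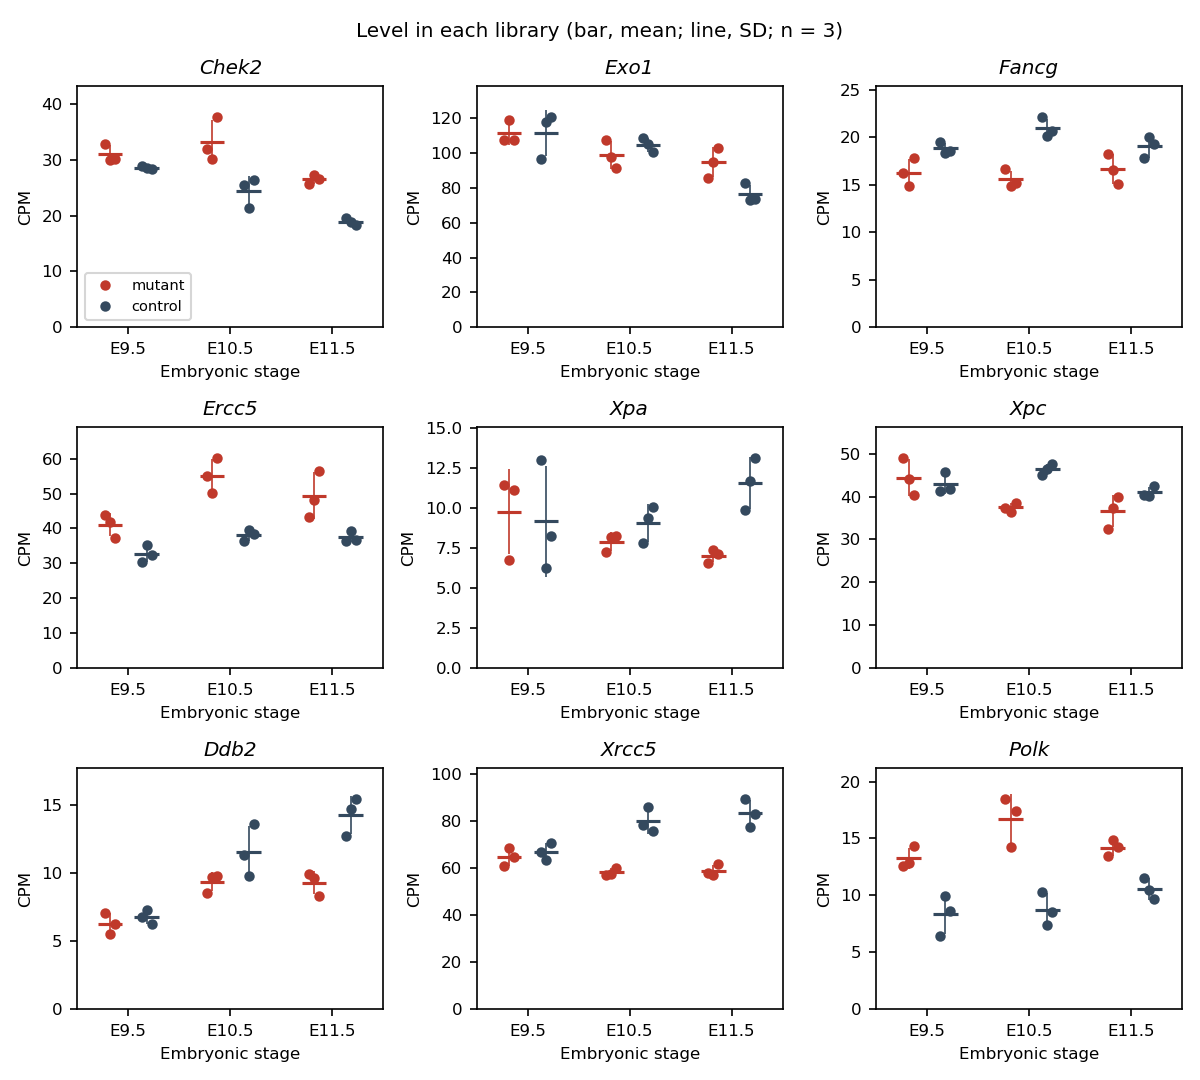
Level in CPM of the 9 genes called at E10.5 or E11.5, in each mutant (left, red) and control (right, blue) library at the 3 stages; bars are means and lines SD of 3 libraries. Xrcc5 separates at E10.5 and E11.5 with mutants near 58 CPM, Polk separates at all 3 stages, and the Ddb2 controls are higher at the later stages than at E9.5.

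At E10.5, 35 of the 45 genes had a negative log2 change, against 9724 of all 20118 genes, and how many were called depended on the libraries in the fit. Groups did not overlap for 22 genes that were lower in mutants (48.9% of 45, against 23.1% of all genes) and for 4 that were higher (8.89%, against 23.0%). At E11.5 there was no such imbalance, with 8 lower and 8 higher (background 20.7% and 19.8%), and at E9.5 there were 1 lower and 4 higher (background 3.61% and 5.26%). The 22 genes at E10.5 included Atm, Atr, Chek1, Mdc1, Trp53bp1, Rad50, Blm, Wrn, Brca1, Brca2, Fancd2, Fanci, Fancm, Msh6, Parp1, Prkdc and Lig4. The CPM of the 45 genes summed to 2324, 2449.5 and 2492 from the lowest to the highest mutant library at E10.5, and to 2782, 2845 and 2887 in the controls, again without overlap. Other lists had lower sums in all E10.5 mutants as well: 77 other repair genes summed to 5549 to 5713 CPM in mutants and 6140.3 to 6157 CPM in controls, 24 S phase genes to 4644 to 4818 CPM and 4838 to 5020.4 CPM, and 24 G2 and mitosis genes to 4024 to 4242 CPM and 4915 to 5169 CPM.

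With E10.5 fitted alone, 22 genes were called, 3 higher (background 17.0%) and 19 lower (background 17.6%). With only control E9.5 replicate 1 left out, 18 were called, 3 higher (background 12.5%) and 15 lower (background 13.2%). Without that library and mutant E10.5 replicate 3 there were 15, 3 higher (background 9.06%) and 12 lower (background 9.6%). With only mutant E10.5 replicate 3 left out there were 3, 2 higher (background 3.6%) and 1 lower (background 3.5%). In the fit of E10.5 alone the lower genes included Atm, Atr, Chek1, Mdc1, Trp53bp1, Blm, Wrn, Brca1, Brca2, Rad54l, Fancl, Fancm, Fanci, Msh6, Parp1 and Lig4. The fit over all stages shares 1 estimate of each gene's spread, so a library of E9.5 bears on the calls at E10.5. At E11.5, leaving out that library gave 11 calls, 6 higher (background 13.8%) and 5 lower (background 15.0%), and leaving out control E11.5 replicate 3 or mutant E11.5 replicate 3 gave 3 each. Those fits called 4.82% and 5.03% of all genes as higher and 5.94% and 5.49% as lower. With libraries whose names start with the same number as a block, 18 genes were called at E10.5, 3 higher and 15 lower. At E9.5 and E11.5 that block leaves 1 mutant and 1 control library to compare, so its calls there are not given. The fit with this block, chosen after seeing the data, left 3 residual degrees of freedom and called 20% of all genes at E10.5.

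At E10.5 the effect moved with transcript length, and at E9.5 it did so only with control E9.5 replicate 1 in the fit. Across the 45 genes the Spearman correlation of log2 change with exon length was 0.52 at E9.5, -0.37 at E10.5 and 0.02 at E11.5. Across 14020 genes it was 0.51, -0.27 and -0.23. Without control E9.5 replicate 1 it was -0.10 at E9.5, -0.37 at E10.5 and 0.02 at E11.5 across the 45 genes, and 0.01, -0.27 and -0.23 across 14071 genes. Genes are not independent replicates, and these values are descriptions. When the trend with length was removed from each library, the median of the 45 genes was -0.01 at E9.5, -0.11 at E10.5 and 0.13 at E11.5. At E10.5, 7 genes were then called, 3 higher (background 9.47%) and 4 lower (background 7.37%), with Trp53bp1 and Brca1 in place of Xpc. The part of length in the values at E10.5 was otherwise not tested.

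**Figure D4:**
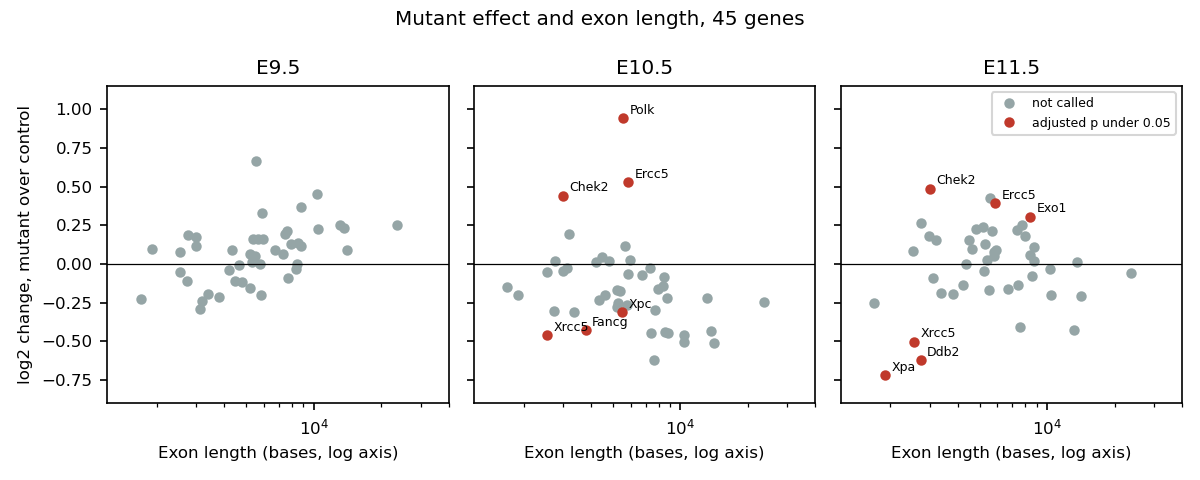
Fitted log2 change, mutant over control, of the 45 genes against exon length in bases (log axis) at each stage, with genes past an adjusted p of 0.05 in red. The points tilt upward at E9.5 (Spearman 0.52, and -0.10 without control E9.5 replicate 1) and downward at E10.5 (-0.37). Among the shorter genes Xrcc5, Fancg, Xpa and Ddb2 are called as lower and Chek2 as higher.

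Controls alone were used to ask how these genes change as the limb bud develops. From E9.5 to E10.5, 3 genes rose (background 15.0%) and 2 fell (background 12.5%) in controls. Ddb2 rose by 0.77 ± 0.15 on the log2 scale (adjusted p = 0.0012), Wrn by 0.74 ± 0.24 (adjusted p = 0.032) and Xrcc5 by 0.26 ± 0.08 (adjusted p = 0.031), all in edgeR's quasi-likelihood test. Xrcc6 and Fance, a core complex subunit, had log2 changes of -0.43 ± 0.09 and -0.48 ± 0.13. Control E9.5 replicate 1 bears on this contrast: Wrn was at 7.18 CPM in it and at 18.8 and 19.2 CPM in the other E9.5 controls, and without it the log2 change was 0.41 for Wrn and -0.30 for Fance, which was then not called (adjusted p = 0.057 in the same test). Leaving out control E9.5 replicate 2 gave 8 calls, in a fit that called 33.3% of all genes. Leaving out control E10.5 replicate 1 gave 3 and replicate 2 gave 2, with 18.8% and 17.5% of all genes called.

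From E10.5 to E11.5 none of the 45 genes rose in controls (background 6.6%) and 5 fell (background 2.89%). They were Rad54l at -0.47 ± 0.10, Exo1 at -0.45 ± 0.10, Lig4 at -0.43 ± 0.13, Chek2 at -0.37 ± 0.10 and the recombination gene Xrcc2 at -0.34 ± 0.10 (log2). Rad54l was at 70.9, 61.2 and 56.4 CPM in controls at E11.5 and at 89.3, 86.0 and 85.6 CPM at E10.5, with no overlap. Without control E9.5 replicate 1, 12 genes fell (background 7.9%), among them Blm, Brca1, Fancd2 and Parp1, and without control E11.5 replicate 3 none was called. Leaving out control E11.5 replicate 2 or any of the E10.5 controls left 1 to 3 calls, and leaving out mutant replicate 2 of E10.5 or of E11.5 left 3. In the fits without 1 of those controls the share of all genes called lower was 0.697% to 1.61%, and without either mutant library it was 2.33% and 2.55%. None was higher by DESeq2 or limma-voom either. An unadjusted p under 0.05 in edgeR's quasi-likelihood test was found for 12 of the 45 and for 4634 of all 20118 genes. Of the 45 genes 36 had a negative log2 change in this contrast, against 10122 of all 20118 genes. The median was -0.13, against -0.0027 over all genes. Among S phase genes 6 of 24 fell in the same contrast, including Rrm2 and Ccne1, and among 77 other repair genes 8 fell.

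The other repair and damage response genes gave few calls by edgeR, as many by limma-voom at each stage, and more by DESeq2 at E10.5 and E11.5. Of 77 such genes, chosen with earlier results of these data known, none was called at E9.5, by edgeR, DESeq2 or limma-voom. Of the genes each tested, these tools called 0.184%, 0.559% and 0.169% there in either direction. At E9.5 an unadjusted p under 0.05 in edgeR's quasi-likelihood test was found for 9 of the 77 and for 1996 of all 20118 genes. At E10.5 none was higher and 2 were lower, Lig1 (DNA ligase 1), at -0.36 ± 0.11, and Mad2l2 (REV7, a subunit of translesion polymerase zeta and of shieldin), at -0.52 ± 0.17. DESeq2 called 3 higher and 4 lower there, limma-voom 0 and 2, and the authors' log2 FPKM values 1 and 1. Of the genes tested, edgeR called 7.3% higher and 6.63% lower at E10.5, and DESeq2 8.67% and 7.44%. For limma-voom the shares were 7.58% and 6.9%, and for the log2 FPKM values 9.18% and 8.63%. At E11.5, 3 were higher and 1 lower by edgeR and by limma-voom, against 7 and 2 by DESeq2 and 11 and 1 by the authors' log2 FPKM values. Of the genes tested, edgeR called 8.02% higher and 9.52% lower at E11.5, and limma-voom 7.84% and 10.6%. For DESeq2 the shares were 9.15% and 10.3%, and for the log2 FPKM values 11.8% and 10.8%. The uracil glycosylase gene Ung was higher by 0.53 ± 0.11, Faap24 by 0.47 ± 0.14 and the helicase gene Helq by 0.31 ± 0.10, and Mad2l2 was lower, with a log2 change of -0.68 ± 0.17. The medians of the 77 genes were -0.03, -0.09 and 0.06 at the 3 stages.

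Most of the listed p53 targets were higher in mutants at E10.5 and E11.5. Of 30 targets and feedback genes, also listed with earlier results known, 10 were higher at E9.5, 22 at E10.5 and 22 at E11.5, with 1 lower at E11.5. Of all genes tested, 0.179%, 7.3% and 8.02% were called as higher at the 3 stages. The median log2 changes of the 30 genes were 0.49, 1.04 and 0.83. Cdkn1a, which encodes the cell cycle inhibitor p21, averaged 185 ± 14 CPM in E10.5 mutants and 23.1 ± 2.0 CPM in E10.5 controls (SD, n = 3 each). Mdm2, the ubiquitin ligase that restrains p53, averaged 148 ± 11 CPM in E10.5 mutants and 65.9 ± 2.9 CPM in E10.5 controls. Trp53 itself averaged 256 ± 1.6 CPM in E11.5 mutants and 201 ± 24.2 CPM in E11.5 controls, a log2 change of 0.35 ± 0.10 (adjusted p = 0.018 in edgeR's quasi-likelihood test), and was not called at E9.5 or E10.5. No test of the difference between this list and the 45 genes was made.

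Genes of the cell cycle and of other tissues were also compared between the groups. Of all genes tested by edgeR, 7.3% were called as higher and 6.63% as lower at E10.5, and 8.02% and 9.52% at E11.5. Of 24 G2 and mitosis genes 5 were lower at E10.5, including Top2a and Nusap1, with a median of -0.26, and 1 was higher and 1 lower at E11.5. Of 24 S phase genes 1 was lower at E10.5 and 6 were higher at E11.5, including Ccne1, Rrm2 and Orc1, with a median of 0.17. The S phase sum was 4226 to 5017 CPM in E11.5 mutants and 3924 to 4356 CPM in E11.5 controls, with overlapping groups. Limb mesenchyme markers were lower for 4 of 10 at E10.5 and 6 of 10 at E11.5, and surface ectoderm markers were higher for 11 and 10 of 12. Endothelial markers were higher for 5 and 2 of 10, erythroid markers for 6 of 10 at E10.5 and none at E11.5 by edgeR, DESeq2 or limma-voom, and macrophage markers for 6 and 8 of 10. For the macrophage markers limma-voom called 5 and 10, and the authors' log2 FPKM values 2 and 4. The macrophage markers summed to 47.3 to 81.0 CPM in E10.5 mutants and 25.3 to 33.9 CPM in E10.5 controls. The erythroid markers summed to 6386 to 20064 CPM in E10.5 mutants and 2987 to 6185 CPM in E10.5 controls. No marker of limb mesenchyme, ectoderm, endothelium or erythroid cells was at 0 in any library, while C1qa, C1qb, C1qc, Adgre1 and Mrc1 were at 0 in at least 1. The part of the tissue and cell cycle makeup in the changes of the 45 genes was not tested.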

How the data were processed

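RNA of forelimb buds was sequenced in 18 libraries, 3 for each genotype and stage. The authors deposited counts of read pairs per gene. Per the file headers these come from featureCounts 1.6.4 in paired-end mode with reverse strandedness, over GENCODE M22 exons on mm10. The submitters' processing notes also name cutadapt, STAR and limma, without settings. Counts were used as the authors deposited them. A deposited table of log2 FPKM values for 14692 genes was used as an alternative, and how the authors normalized it is not stated. Symbols came from the reference annotation and covered 99.8% of identifiers. Paired-end counting by strand keeps a gene apart from antisense neighbours, and none of the genes called between mutants and controls shares exon bases with a gene on its own strand.

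The genes, gene lists and tests were chosen with earlier results of these data known. In R 4.3.3, edgeR 4.0.16 filtered genes with filterByExpr (20118 kept), scaled libraries by TMM and fitted 1 robust quasi-likelihood model to all 18 libraries with 6 group coefficients (12 residual degrees of freedom, common biological coefficient of variation 0.231). Contrasts were mutant against control at each stage, their mean, their differences between stages, and control stages against each other. P-values were adjusted by Benjamini-Hochberg over all genes tested, with a threshold of 0.05. Changes are log2 values ± SE, and levels are CPM of the TMM-scaled library. The script was tested on simulated data. Alternatives used DESeq2 1.42.0, limma 3.58.1 (voom, and the log2 FPKM table), no filter, other size factors, each stage alone, a replicate block, a trend on exon length removed per library (lowess span 0.4), a block for the number that starts a library name (added after seeing the data), and libraries left out. Named genes were members past the threshold at a stage, with library values of those stages. Of the other repair genes, up to 3 per direction and stage were named. Members and cell cycle genes named outside this rule, and Polk's promoter, were chosen after their values were seen. Promoter windows were searched in Python 3.11.15. Deviations from the group means were correlated between mutant and control libraries. Same-numbered libraries had correlations of 0.33, 0.23 and 0.12 at E9.5, 0.23, 0.05 and -0.01 at E10.5, and -0.29, 0.20 and -0.17 at E11.5. Libraries with unlike numbers reached 0.25 at E9.5, 0.11 at E10.5 and 0.48 at E11.5, so the numbers did not single out pairs.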

Additional observations from a re-analysis of the deposited data

Results flagged for a closer look

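Xrcc5 is listed because its mutant effect differed between stages in a test of the difference itself. The mutant effect at E11.5 minus that at E9.5 was -0.45 ± 0.12 on the log2 scale (adjusted p = 0.034 in edgeR's quasi-likelihood test). All 3 mutant libraries were below all 3 control libraries at E11.5, and the groups overlapped at E9.5. The call was kept by DESeq2 (adjusted p = 0.0076), by limma-voom and by the authors' log2 FPKM values. In edgeR's quasi-likelihood test the call was lost with the replicate block (adjusted p = 0.062) and without the low-count filter (adjusted p = 0.107). A block for the number that starts a library name leaves 1 mutant and 1 control library at each of these stages, so its result is not given. The Xrcc5 call was also lost without control E10.5 replicate 1, control E11.5 replicate 1 or 3, mutant E9.5 replicate 2 or 3, or any 1 of the E11.5 mutants, with adjusted p up to 0.0831.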

How the results depend on the processing

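The 12 single-gene calls at E10.5 and E11.5 were refitted under every alternative: 296 values kept direction and call, 52 kept direction only and none reversed. Many of these fits left out a library of another stage, which is not part of the comparison, so a reversal was hardly possible in them. The pooled count is therefore no measure of stability, and fits without a library of the same stage are given with each gene. Counts of called genes (6 at E10.5, 6 at E11.5 and 6 for the mean effect) moved as follows. Each has beside it the share of the genes tested in that fit that were called in either direction. Without the low-count filter, the E11.5 minus E9.5 contrast called 0 genes (2.87%) and the control contrasts 3 (13.3%) and 2 (4.31%). DESeq2 called 1 gene at E9.5 (0.559%) and 1 each for E10.5 minus E9.5 (8.09%) and E11.5 minus E10.5 (0.873%). E10.5 fitted alone gave 22 (34.6%). With the trend on exon length removed, E10.5 minus E9.5 called 1 gene (2.92%), E11.5 minus E9.5 4 (8.37%) and the control contrasts 9 (28.8%) and 11 (12.7%). Without both libraries that stood apart, the counts were 15 at E10.5 (18.7%), 11 at E11.5 (28.7%), 13 for the mean effect (30.5%), 2 for E11.5 minus E9.5 (7.47%) and 11 for control E11.5 against E10.5 (18.1%). With libraries whose names start with the same number as a block, chosen after seeing the data, they were 18 at E10.5 (20%), 2 at E11.5 (14.3%), 14 for the mean effect (23.7%) and 0 for E11.5 minus E9.5 (1.91%). Leaving out 1 library at a time gave 3 to 18 at E10.5, 3 to 11 at E11.5, 6 to 13 for the mean effect, 0 to 3 for E10.5 minus E9.5, 0 to 2 for E11.5 minus E9.5, 2 to 8 for control E10.5 against E9.5 and 0 to 12 for control E11.5 against E10.5. The cause of these shifts was not tested.

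By the correlations of deviations, replicate numbers did not single out all pairs of libraries at any stage. The highest value at E9.5 (0.33) and at E10.5 (0.23) was that of same-numbered libraries. With 3 libraries per group these values cannot exclude pairing. At E9.5 mutant 2 and control 3 had 0.25, above the 0.23 and 0.12 of same-numbered pairs 2 and 3. The count at E9.5 was 0 with and without a replicate block. Replicate numbers are not the numbers that start the library names. With the replicate block, 6 genes were called at E10.5 (Trp53bp1 in place of Xpc), 5 at E11.5 (without Exo1), 6 in the mean effect, 1 for E11.5 minus E9.5 (Xpa in place of Xrcc5) and 3 in control E11.5 against E10.5 (8.17%). With the replicate block and the length trend removed, counts were 1 for E10.5 minus E9.5 (2.63%), 5 for E11.5 minus E9.5 (6.28%) and 8 for control E11.5 against E10.5 (10.7%).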
